A study of Mus musculus with 60 samples.

Results

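The genes described here are 9 chemokines and 1 chemokine receptor of the mouse hippocampus: Ccl6, Ccl9, Ccl3, Ccl4, Ccl2, Ccl12, Cxcl16, Cxcl12, Cx3cl1 and Cx3cr1. They were taken by name from the table of gene counts, so 10 of its 35976 gene symbols are described, and the list was drawn up with earlier results of these data known. RNA of the whole hippocampus was sequenced in 60 libraries after depletion of ribosomal RNA. The NLGF mice carry App NL-G-F, a knock-in of mutations of familial Alzheimer's disease into the mouse App gene with a humanized amyloid-beta sequence, so that App stays under its own promoter in every cell type that uses it. The WT mice are the wild type without the knock-in. The groups were NLGF and WT at 3 weeks, NLGF and WT at 8 weeks, and NLGF and WT at 24 weeks, each of 10 libraries, 5 labelled female and 5 labelled male. No further treatment or allele is given for any group. The labels do not say which libraries came from separate animals, so the p-values measure the spread between these libraries, which may be technical in part.

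Chemokines are small secreted or membrane-bound proteins that bind G protein-coupled receptors and direct the movement of leukocytes and microglia. In the brain Cx3cl1, also called fractalkine, is made by neurons as a membrane protein and shed by the proteases Adam10 and Adam17, and its receptor Cx3cr1 is carried by microglia. Microglia also make CC chemokines, which act on receptors such as Ccr1 and Ccr2, and Cxcl12 from vascular and meningeal cells and neurons acts on Cxcr4 and Ackr3.

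The libraries held 17786578 to 73423252 counts with a median of 26097235. Of the NLGF libraries of week 3, 7 held 54026870 counts or more, and the other 53 libraries of the series held at most 35162084; week 3 results of the tested genes are given with and without these 7 deeper libraries. App averaged 1610, 1640 and 1620 CPM in NLGF hippocampus and 1720, 1900 and 1740 CPM in WT hippocampus at weeks 3, 8 and 24, and since a knock-in is counted like the normal gene, this level does not check the labels. The counts of 1 NLGF library of week 3, labelled male, go against its sex label, and 1 NLGF library titled week 8 has 3 weeks in its age field. On a scale set by the 1202 genes that differed between the WT libraries of weeks 8 and 3, where 0 is the WT mean at week 3 and 1 that at week 8, the library titled week 8 lay at 1.06, and it was kept with week 8. Neuronal markers were abundant in all groups at week 24, with a summed level of 5096 to 6456 CPM in NLGF hippocampus and 5759 to 6719 CPM in WT hippocampus. Choroid plexus markers ranged widely between libraries of both genotypes, from 45.7 to 10670 CPM in NLGF hippocampus and from 30.7 to 5948 CPM in WT hippocampus at week 24.

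At week 24 the microglial receptor Cx3cr1 and the ligands Ccl6 and Cxcl16 rose in NLGF hippocampus, and the neuronal ligand Cx3cl1 did not pass the test. Of the 10 genes, 6 had enough counts to be tested and 3 of these were called higher: Ccl6 at 4.96-fold, Cxcl16 at 2.05-fold and Cx3cr1 at 1.28-fold of the WT level (edgeR's quasi-likelihood test, adjusted p under 0.05 over all genes). None of the 6 was called lower. Cxcl12 was lower at an unadjusted p of 0.0279 (edgeR), where 8.99% of all genes had an unadjusted p under 0.05 in either direction. In such bulk samples more or fewer cells of a type and more or less RNA per cell cannot be told apart. Among all 16508 genes tested, 0.8% were called higher at that threshold and 0.878% in either direction, and since the 10 genes were chosen with results known, the 3 of 6 are given as a description. The median log2 fold change of the 6 tested genes was 0.55, beside a median of -0.000633 over all genes tested. Ccl3, Ccl4, Ccl2 and Ccl12 had too few counts for the filter in every genotype comparison, and their tests come from a fit without it.

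**Figure D1:**
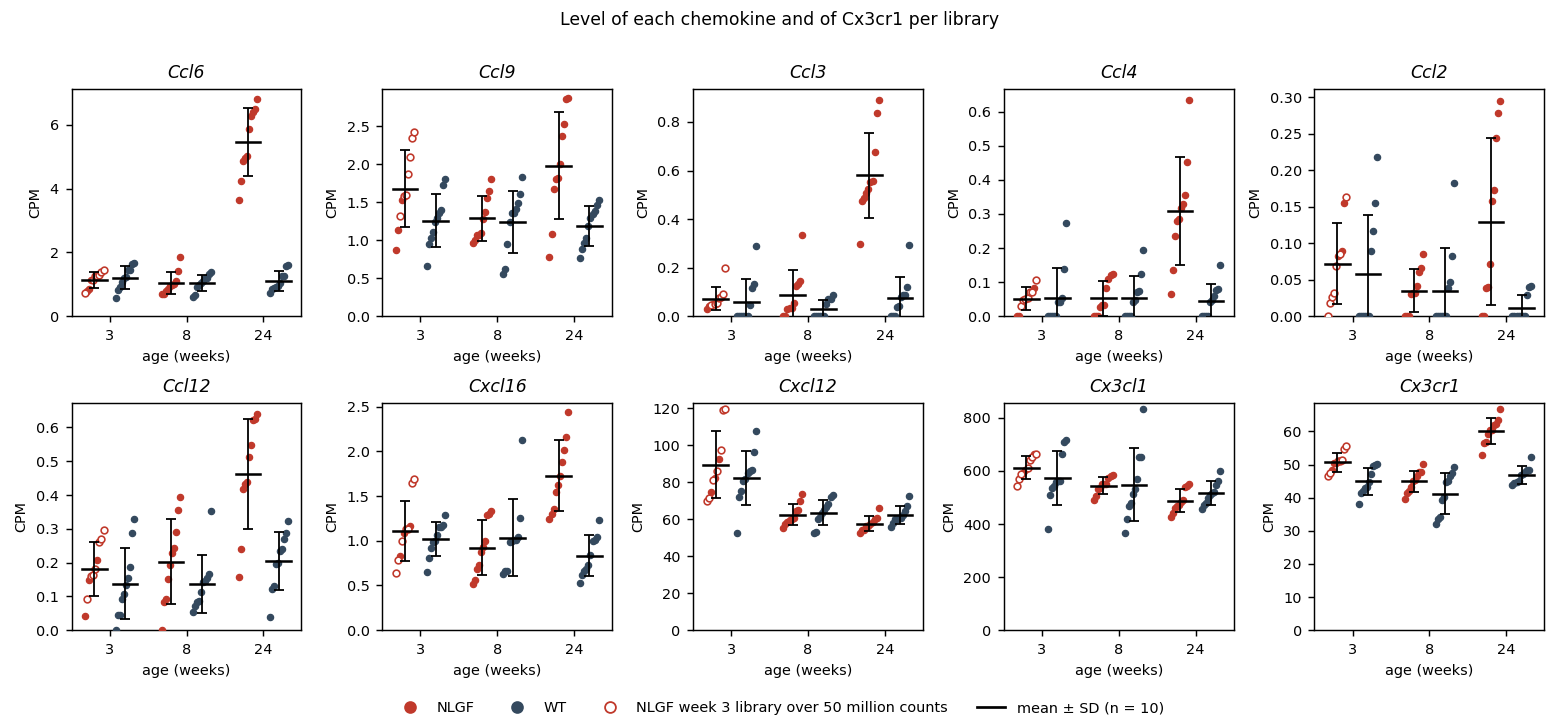
Level of each gene in CPM, which sets its counts against the library total after TMM scaling, in every library at 3, 8 and 24 weeks. Each point is a library, NLGF in red left of WT in blue, open red points are the deeper NLGF libraries of week 3, and bars give the mean ± SD of 10 libraries. At week 24 the NLGF points of Ccl6, Ccl3, Cxcl16 and Cx3cr1 all lie above the WT points, and at weeks 3 and 8 those of every gene shown overlap with WT.

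Ccl6 and Ccl9 are CC chemokines that act mainly through Ccr1, and both belong to a group of genes found in rodents without a direct human counterpart. Their genes are neighbours on the minus strand of chromosome 11, Ccl6 at chr11:83587882-83593087 and Ccl9 at chr11:83572919-83578636 (GRCm38/mm10, GENCODE vM21). Ccl6 lay between 3.65 and 6.81 CPM in the 10 NLGF libraries of week 24 with a median of 5.45, against 0.719 to 1.59 CPM in the 10 WT libraries with a median of 0.993. The lowest NLGF library lay far above the highest WT library, so the groups did not overlap. In raw counts the libraries held 110 to 184 reads of Ccl6 in NLGF hippocampus and 20 to 43 in WT hippocampus. The log2 fold change was 2.31 ± 0.149 (SE, adjusted p = 1.375e-09, edgeR), and the 95% interval of the fold ran from 4.05 to 6.07. Ccl6 kept this call with each of the 20 libraries left out in turn, with a log2 fold change of 2.25 to 2.41. It was higher in both sexes, at 5.88 ± 0.877 CPM in NLGF females against 1.15 ± 0.324 CPM in WT females, and at 5.04 ± 1.16 CPM in NLGF males against 1.05 ± 0.310 CPM in WT males (SD, n = 5 each).

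Ccl9 showed a wider spread. It lay between 0.783 and 2.87 CPM in NLGF hippocampus of week 24 with a median of 1.91, against 0.770 to 1.53 CPM in WT hippocampus with a median of 1.24. In 8 of 10 NLGF libraries it was above every WT library, and in the other 2 it was within the WT range. The log2 fold change of 0.73 ± 0.202 did not pass in edgeR (SE, adjusted p = 0.127). The same comparison passed in DESeq2 (adjusted p = 0.0390), and Ccl9 stands in the authors' deposited table for week 24 with a log2 fold change of 0.50 and an adjusted p of 0.0204. Without the library of NLGF female 5 or that of NLGF male 2, edgeR called it as well (lowest adjusted p 0.0197). For Ccl6 the authors' deposited table gives a log2 fold change of 2.30.

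The stretches before the starts of both neighbours are shown because Ccl6 was called and Ccl9 was not, although they lie side by side. They are the 250 bases before the RefSeq start (GRCm38.p6, minus strand, 5' to 3'), chr11:83593088-83593337 for Ccl6 and chr11:83578637-83578886 for Ccl9, and the stretches before Ccl3 (chr11:83649379-83649628) and Cx3cr1 (chr9:120068297-120068546, inside the longer GENCODE gene) are given for comparison with genes that differ in level. Capitals mark every match to 5 motifs searched on both strands.
Ccl6: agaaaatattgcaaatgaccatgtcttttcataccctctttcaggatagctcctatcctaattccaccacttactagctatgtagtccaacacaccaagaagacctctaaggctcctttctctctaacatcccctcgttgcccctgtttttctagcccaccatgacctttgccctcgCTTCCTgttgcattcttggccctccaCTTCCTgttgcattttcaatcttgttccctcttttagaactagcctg
Ccl9: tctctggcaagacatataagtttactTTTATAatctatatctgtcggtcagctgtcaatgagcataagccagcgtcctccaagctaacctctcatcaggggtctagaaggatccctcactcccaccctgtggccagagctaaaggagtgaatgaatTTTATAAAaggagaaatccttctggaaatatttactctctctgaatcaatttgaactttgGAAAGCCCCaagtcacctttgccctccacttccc
Ccl3: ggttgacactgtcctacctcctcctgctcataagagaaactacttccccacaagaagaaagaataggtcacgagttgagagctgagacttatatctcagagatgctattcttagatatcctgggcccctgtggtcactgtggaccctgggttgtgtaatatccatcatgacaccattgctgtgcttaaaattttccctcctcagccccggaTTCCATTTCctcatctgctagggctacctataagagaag
Cx3cr1: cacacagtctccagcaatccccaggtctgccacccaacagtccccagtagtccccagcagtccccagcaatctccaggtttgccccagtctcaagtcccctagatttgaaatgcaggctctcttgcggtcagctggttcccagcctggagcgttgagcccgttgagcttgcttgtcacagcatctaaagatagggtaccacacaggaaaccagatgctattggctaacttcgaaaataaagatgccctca
The motifs were GAGGAAGT, bound by the myeloid factor PU.1, GAAANNGAA of interferon-stimulated genes, GGGNNTTTC of NF-kB, the TATA box TATAAA, and AGGAAG, the core of ETS factors, which lies within the PU.1 motif. The ETS core was added, and the last base of the usual interferon and NF-kB motifs was left off, after the sequences had been seen. Of 27025 RefSeq promoters of this length, 2.44% held the PU.1 motif, 7.16% that of interferon-stimulated genes, 3.79% that of NF-kB, 13% the TATA box and 29.2% the ETS core. The Ccl6 stretch held the ETS core 2 times, at -73 and -47 from the start, both on the opposite strand. The Ccl9 stretch held the NF-kB motif at -34 on the opposite strand and 2 TATA matches on the opposite strand, at -224 and -94, of which the second overlaps a match at -92 on the gene's own strand. The Ccl3 stretch held the interferon motif at -39 on the opposite strand, and that of Cx3cr1 held none of the 5. A local alignment of the Ccl6 and Ccl9 stretches matched 16 of 17 bases, -59 to -43 of Ccl6 with -18 to -2 of Ccl9. Such matches describe letters and are not binding sites. Ccl12, Cxcl12 and Cx3cl1 also had an entry, so 7 of the 10 genes matched; Ccl2, Ccl4 and Cxcl16 are named only.

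Ccl3 and Ccl4, known as the macrophage inflammatory proteins 1-alpha and 1-beta, are CC chemokines of macrophages and microglia, and Ccl3 acts on Ccr1. They lie close together on chromosome 11, Ccl3 at chr11:83647844-83649355 on the minus strand and Ccl4 at chr11:83662584-83664683 on the plus strand. Ccl3 lay between 0.299 and 0.889 CPM in NLGF hippocampus of week 24 with a median of 0.539, against 0 to 0.294 CPM in WT hippocampus with a median of 0.0602. The groups did not overlap, although the highest WT library and the lowest NLGF library were close, and 3 WT libraries held no read. Summed over 10 libraries, 160 reads were counted in NLGF hippocampus and 19 in WT hippocampus, a CPM ratio of 8.32 (95% interval 5.15 to 14.2). Without the filter on low counts the log2 fold change of Ccl3 was 2.98 ± 0.392 (SE, adjusted p = 2.266e-05, edgeR). In that fit, 5 of the 10 genes were called higher, beside 0.437% of 29731 genes.

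Ccl4 was lower in level than Ccl3 and moved in the same direction. It lay between 0.0664 and 0.633 CPM in NLGF hippocampus of week 24 with a median of 0.301, against 0 to 0.150 CPM in WT hippocampus with a median of 0.0449. In 8 of 10 NLGF libraries it was above every WT library. The summed reads were 84 in NLGF hippocampus and 13 in WT hippocampus, a ratio of 6.38 (95% interval 3.54 to 12.5). Without the filter the log2 fold change was 2.58 ± 0.495 (SE, adjusted p = 0.00566, edgeR). At weeks 3 and 8 both genes were near the limit of detection in both genotypes. Ccl3 had 42 reads in NLGF and 14 in WT hippocampus at week 3, where the NLGF libraries were deeper, and 24 in NLGF and 7 in WT hippocampus at week 8, a ratio of 2.7 (95% interval 1.13 to 7.41). Of these 24 reads 8 came from NLGF female 1, the library with the conflicting age field, and over libraries the log2 fold change of Ccl3 at week 8 did not pass (1.36 ± 0.740 without the filter, SE, adjusted p = 0.719, edgeR). Ccl4 had 30 reads in NLGF and 13 in WT hippocampus at week 3, and 16 in NLGF and 14 in WT hippocampus at week 8.

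Ccl2, monocyte chemoattractant protein 1, and Ccl12, a related mouse chemokine, are both ligands of Ccr2, which is carried by monocytes. Ccl2 (chr11:82035571-82037453) lay between 0 and 0.295 CPM in NLGF hippocampus of week 24 with a median of 0.115, against 0 to 0.0409 CPM in WT hippocampus with a median of 0. In 6 of 10 NLGF libraries it was above every WT library, and 2 NLGF libraries and 7 WT libraries held no read. The group sums were 36 reads in NLGF hippocampus and 3 in WT hippocampus, a ratio of 11.9 (95% interval 3.74 to 60.2), which covers counting error only, as do the other intervals of summed reads. The log2 fold change of 3.10 ± 0.767 without the filter did not pass (SE, adjusted p = 0.0702, edgeR).

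Ccl12 (chr11:82101845-82103400) had more reads than Ccl2 in every group. It lay between 0.158 and 0.641 CPM in NLGF hippocampus of week 24 with a median of 0.475, against 0.0382 to 0.324 CPM in WT hippocampus with a median of 0.217. In 8 of 10 NLGF libraries it was above every WT library. The summed reads were 129 in NLGF hippocampus and 56 in WT hippocampus, a ratio of 2.28 (95% interval 1.65 to 3.17). Its log2 fold change of 1.16 ± 0.296 without the filter did not pass either (SE, adjusted p = 0.0932, edgeR). At week 8 the sums were 61 reads in NLGF and 31 in WT hippocampus, a ratio of 1.55 (95% interval 0.988 to 2.47). Without the filter none of Ccl3, Ccl4, Ccl2 and Ccl12 passed at week 3 (log2 fold changes of 0.076 to 0.53, adjusted p-values of 0.686 to 0.972) or at week 8 (-0.27 to 1.36, adjusted p-values of 0.719 to 0.999, edgeR).

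Cxcl16 is a chemokine made as a membrane protein, shed by Adam10, and the ligand of Cxcr6 on T cells; it also binds oxidized lipoprotein as a scavenger receptor. Its gene lies at chr11:70453983-70459984 on the minus strand. Cxcl16 lay between 1.25 and 2.45 CPM in NLGF hippocampus of week 24 with a median of 1.67, against 0.524 to 1.23 CPM in WT hippocampus with a median of 0.782. The groups did not overlap, although the highest WT library, male 4, came close to the lowest NLGF library, female 5. The log2 fold change was 1.04 ± 0.168 (SE, adjusted p = 0.00103, edgeR), with a 95% interval of the fold of 1.64 to 2.58. Fitted within a sex, with 5 libraries against 5, the size was similar and the call was lost: 1.11 in females (adjusted p = 0.141) and 0.97 in males (adjusted p = 0.307, edgeR). The level was 1.80 ± 0.457 CPM in NLGF females against 0.818 ± 0.217 CPM in WT females, and 1.66 ± 0.365 CPM in NLGF males against 0.849 ± 0.265 CPM in WT males (SD, n = 5 each).

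Cxcl12, or stromal cell-derived factor 1, guides migrating neurons and holds haematopoietic and immune cells in place through Cxcr4. Its gene lies at chr6:117168535-117181367. Cxcl12 lay between 52.2 and 66.0 CPM in NLGF hippocampus of week 24 with a median of 56.7, against 55.8 to 72.6 CPM in WT hippocampus with a median of 60.8. The ranges overlapped over most of their length, with 3 NLGF libraries below every WT library. The log2 fold change of -0.11 ± 0.0476 did not pass (SE, adjusted p = 0.473, edgeR), and the 95% interval of the fold was 0.867 to 0.987.

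Cx3cl1 (chr8:94772009-94782427) and Cx3cr1 (chr9:119901616-120069879, minus strand) behaved differently from each other. Cx3cr1 lay between 53.0 and 66.9 CPM in NLGF hippocampus of week 24 with a median of 60.6, against 43.8 to 52.4 CPM in WT hippocampus with a median of 47.0. All 10 NLGF libraries were above all 10 WT libraries, as in 0.309% of the 16508 genes tested; Ccl6, Cxcl16 and, outside the tested genes, Ccl3 separated in the same way. The log2 fold change of Cx3cr1 was 0.36 ± 0.0427 (SE, adjusted p = 1.645e-05, edgeR), with a 95% interval of the fold of 1.21 to 1.36. Within a sex it was 0.35 in females (adjusted p = 0.0307) and 0.37 in males (adjusted p = 0.0543, edgeR). The authors' deposited table lists Cx3cr1 at week 24 with a log2 fold change of 0.35 and Cxcl16 with 0.91.

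Cx3cl1 lay between 426.6 and 550.5 CPM in NLGF hippocampus of week 24 with a median of 477.6, against 457.5 to 599.3 CPM in WT hippocampus with a median of 513.4. The ranges overlapped, and the log2 fold change of -0.08 ± 0.0564 did not pass (SE, adjusted p = 0.694, edgeR; 95% interval of the fold 0.874 to 1.02). The ratio of Cx3cl1 to Cx3cr1 within a library does not depend on how libraries are scaled. At week 24 it lay between 6.72 and 10.2 in NLGF hippocampus with a median of 7.77, against 9.71 to 12.7 in WT hippocampus with a median of 10.9. In 9 of 10 NLGF libraries the ratio was below every WT library. The mean log2 ratio of NLGF minus that of WT hippocampus was -0.44 ± 0.0816 (SE, 2-sided permutation test, 100000 resamples, p = 0.00014, adjusted over 3 weeks p = 0.00042). It combines the log2 fold changes given above, 0.36 for Cx3cr1 and -0.08 for Cx3cl1. Most of the difference is thus that of Cx3cr1, and its p-value is not independent of the Cx3cr1 call. At week 3 the ratio had a median of 12.1 in NLGF hippocampus and 12.8 in WT hippocampus, a log2 difference of -0.07 ± 0.0695 (permutation p = 0.357, adjusted p = 0.357), and without the 7 deeper libraries the difference was -0.023 (3 NLGF against 10 WT libraries, exact permutation p = 0.762). At week 8 it had a median of 12.3 in NLGF hippocampus and 13.2 in WT hippocampus, a log2 difference of -0.11 ± 0.0792 (permutation p = 0.196, adjusted p = 0.294).

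**Figure D2:**
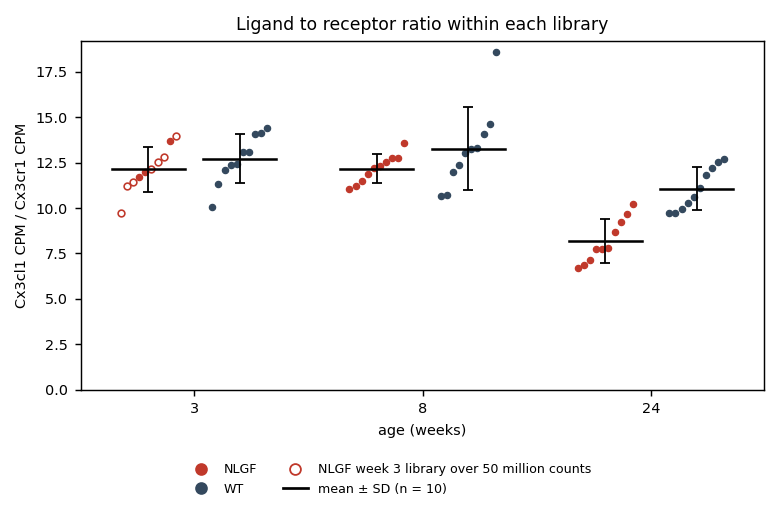
Ratio of Cx3cl1 CPM to Cx3cr1 CPM within each library at 3, 8 and 24 weeks, NLGF in red left of WT in blue, with bars for the mean ± SD of 10 libraries and open points for the deeper NLGF libraries of week 3. The NLGF points of week 24 lie between 6.72 and 10.2, 9 of them below every WT point of that week, and the groups overlap at weeks 3 and 8.

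Before week 24 none of the 6 tested genes was called in edgeR; at an unadjusted p under 0.05 there were 2 at week 3, beside 22% of all genes, and none at week 8, beside 7.83%, and DESeq2 called 1 at week 3 and none at week 8. At week 3, where 3.78% of 16605 genes were called in either direction, Cx3cr1 came closest. It lay between 46.7 and 55.7 CPM in NLGF hippocampus with a median of 50.7, against 37.9 to 50.2 CPM in WT hippocampus with a median of 44.1. In 7 of 10 NLGF libraries Cx3cr1 was above every WT library, and the log2 fold change was 0.18 ± 0.0561 (SE, adjusted p = 0.0665, edgeR). DESeq2 called it (adjusted p = 0.0176), and the authors' deposited table lists it at week 3 with a log2 fold change of 0.15 and an adjusted p of 0.0127. Without the deeper libraries the value was 0.16 ± 0.0881 (adjusted p = 0.485, edgeR). The 7 deeper NLGF libraries averaged 51.2 CPM of Cx3cr1 and the 3 others 49.8 CPM. Ccl9 at week 3 had a log2 fold change of 0.45 ± 0.195 (adjusted p = 0.174, edgeR), which was -0.14 without the deeper libraries: it averaged 1.89 CPM in the 7 deeper NLGF libraries and 1.18 CPM in the 3 others, against 1.26 CPM in WT hippocampus. The part of library depth in these week 3 values was not tested beyond this. The other 4 tested genes had log2 fold changes of -0.07 (Ccl6), 0.13 (Cxcl16), 0.12 (Cxcl12) and 0.10 (Cx3cl1) at week 3, with adjusted p-values of 0.5275 to 0.863 in edgeR. Without the deeper libraries these were -0.40 (Ccl6), 0.080 (Cxcl16), 0.044 (Cxcl12) and 0.11 (Cx3cl1), with adjusted p-values of 0.622 to 0.922.

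At week 8 the levels of NLGF and WT hippocampus were close. Among all 16494 genes tested, 0% were called in edgeR, with 1292 genes at an unadjusted p under 0.05 and 1 gene called by DESeq2. Ccl6 lay between 0.706 and 1.84 CPM in NLGF hippocampus of week 8 with a median of 0.958, against 0.614 to 1.39 CPM in WT hippocampus with a median of 1.07. Cxcl16 lay between 0.519 and 1.33 CPM in NLGF hippocampus with a median of 0.903, against 0.627 to 2.12 CPM in WT hippocampus with a median of 0.999. Cx3cr1 lay between 39.7 and 50.1 CPM in NLGF hippocampus with a median of 45.2, against 32.2 to 49.2 CPM in WT hippocampus with a median of 42.5. The ranges of all 3 overlapped. The log2 fold changes at week 8 were -0.01 ± 0.189 for Ccl6, -0.16 ± 0.224 for Cxcl16 and 0.13 ± 0.0736 for Cx3cr1 (SE), and 0.03, -0.02 and 0.00 for Ccl9, Cxcl12 and Cx3cl1. The 95% interval of the Ccl6 fold at week 8 was 0.768 to 1.28.

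**Figure D3:**
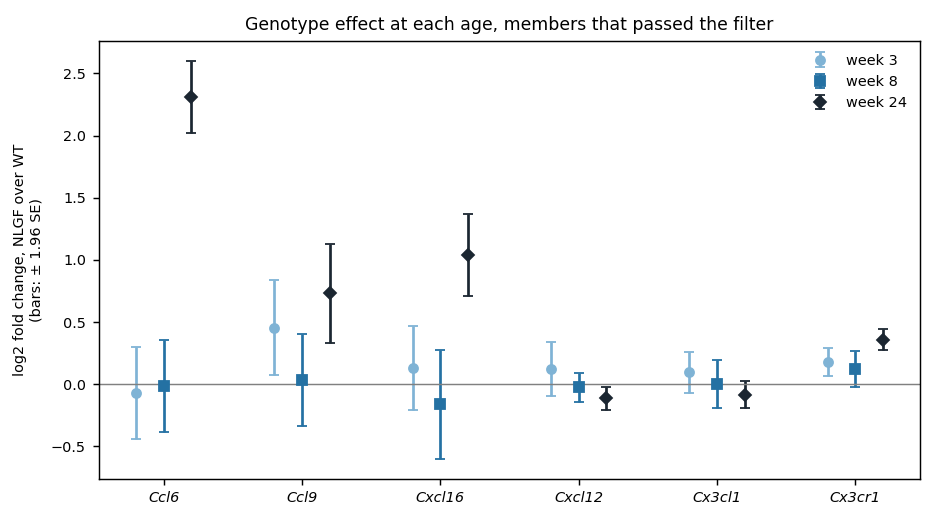
Log2 fold change of NLGF over WT at weeks 3, 8 and 24 for the 6 genes that passed the count filter, with bars of ± 1.96 SE. Ccl6, Cxcl16 and Cx3cr1 stand at 2.31, 1.04 and 0.36 at week 24, and Cxcl12 and Cx3cl1 stay near 0 at every age.

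Whether the genotype effect itself differed between ages was tested on all 60 libraries. The effect of Ccl6 at week 24 exceeded that at week 8 by 2.32 ± 0.248 (log2, SE, adjusted p = 1.558e-09, edgeR) and that at week 3 by 2.38 ± 0.244 (adjusted p = 3.153e-10, edgeR). Of 17752 genes, 0.31% had a higher effect at week 24 than at week 8, and 0.901% a higher one than at week 3. Cxcl16 exceeded its week 8 effect by 1.20 ± 0.268 (adjusted p = 0.0155, edgeR), and this call was lost without WT female 3 of week 8 (1.04, adjusted p = 0.0520), whose 2.12 CPM of Cxcl16 stood above the other WT libraries of that week. Against week 3 the difference of Cxcl16 was 0.91 ± 0.264 and did not pass (adjusted p = 0.0703, edgeR). The effect of Cx3cr1 at week 24 was not shown to differ from that at week 8 (0.23 ± 0.0817, adjusted p = 0.687) or week 3 (0.18 ± 0.0814, adjusted p = 0.306, edgeR). For Ccl9 the differences were 0.69 ± 0.279 from week 8 and 0.28 ± 0.276 from week 3, with adjusted p-values of 0.942 and 0.712 in edgeR. For Cxcl12 they were -0.089 ± 0.117 from week 8 and -0.23 ± 0.116 from week 3, and for Cx3cl1 -0.088 ± 0.122 and -0.18 ± 0.121, none of which passed (SE, adjusted p-values of 0.367 to 1, edgeR). Without the 7 deeper libraries the difference from week 3 was 2.71 ± 0.331 for Ccl6 (adjusted p = 7.004e-07, edgeR). In that fit it was 0.96 for Cxcl16, 0.87 for Ccl9, 0.19 for Cx3cr1, -0.16 for Cxcl12 and -0.20 for Cx3cl1, with adjusted p-values of 0.306 to 0.641. Ccl3 and Ccl12 passed the filter of that fit, and Ccl4 and Ccl2 did not. The difference was 2.83 ± 1.285 for Ccl3 (adjusted p = 0.3905) and 1.32 ± 0.735 for Ccl12 (SE, adjusted p = 0.483, edgeR). Without the filter, the differences of Ccl3, Ccl4, Ccl2 and Ccl12 were 0.56 to 3.13 from week 8 and 0.78 to 2.90 from week 3, and none passed (adjusted p-values of 0.224 to 1, edgeR).

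In WT hippocampus Cxcl12 alone of the 6 tested genes was called with age. It fell by 0.38 ± 0.0835 on the log2 scale at week 8 relative to week 3 (adjusted p = 0.00342, edgeR), beside 7.14% of 16844 genes called in either direction and 4.51% called lower. The other 5 had log2 differences of -0.19 to 0.022 (adjusted p-values of 0.310 to 0.999, edgeR). The WT levels of Cxcl12 were 52.6 to 107.6 CPM at week 3, 52.6 to 72.8 CPM at week 8 and 55.8 to 72.6 CPM at week 24, with medians of 83.2, 64.0 and 60.8 CPM. The wider spread was at week 3. NLGF hippocampus had medians of 84.3, 60.3 and 56.7 CPM of Cxcl12 at the same ages, which were not tested for age. Adam17, a sheddase of Cx3cl1 like Adam10, also fell at week 8 relative to week 3, by 0.58 ± 0.0913 (adjusted p = 5.548e-05, edgeR). The more abundant Adam10 was not called and its mean did not fall. It averaged 90.54 ± 12.1 CPM in WT hippocampus at week 3 and 98 ± 13.65 CPM at week 8 (SD, n = 10 each). At week 24 relative to week 8 none of the 6 genes was called in WT hippocampus, where 0.279% of 16844 genes were (47 genes, and 1935 at an unadjusted p under 0.05), and DESeq2 called none of the 6 either. The smallest p-value among the 6 was that of Cx3cr1, with a log2 difference of 0.19 ± 0.0697 (adjusted p = 0.288, edgeR), and Ccl6 had a difference of 0.061 ± 0.190 (SE). Ccl9, Cxcl16, Cxcl12 and Cx3cl1 had differences of -0.30 to -0.028, with adjusted p-values of 0.569 to 0.923. Ccl3, Ccl4, Ccl2 and Ccl12 did not pass in WT ageing without the filter either (-0.81 to 0.11 at week 8 against 3 and -1.27 to 1.24 at week 24 against 8, adjusted p-values of 0.651 to 1, edgeR).

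The genotype effect at week 24 was not shown to differ between males and females for any of the 8 genes that passed the filter of that test. In edgeR 0% of 17408 genes were called; 534 had an unadjusted p under 0.05, none of them among the 8, and DESeq2 called none of the 8. Males minus females, the difference of the log2 fold change was -0.12 ± 0.299 for Ccl6, -0.15 ± 0.343 for Cxcl16, 0.02 ± 0.0873 for Cx3cr1 and 0.74 ± 0.848 for Ccl3 (SE). It was -0.25 for Ccl9, 0.099 for Ccl12, -0.043 for Cxcl12 and 0.11 for Cx3cl1. Without the filter it was 0.46 ± 1.05 for Ccl4 and 0.57 ± 1.58 for Ccl2. The wide errors of the low genes leave differences of either sign within the interval.

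Compared per kilobase of exon, so that genes of different length can be set side by side, Cx3cl1 was by far the most abundant of the 10 transcripts. In NLGF hippocampus of week 24 the mean levels were 124 CPM per kb for Cx3cl1, 13.3 for Cx3cr1, 7.03 for Cxcl12 and 3.04 for Ccl6. These 4 did not overlap with each other, in the order given. In WT hippocampus they were 132, 10.4, 7.60 and 0.614 CPM per kb, also without overlap between neighbours. Below Ccl6 the NLGF means were 0.863 for Ccl12, 0.758 for Ccl3, 0.650 for Ccl9, 0.573 for Cxcl16 and 0.468 CPM per kb for Ccl4, and the ranges of neighbours in that order overlapped. Ccl2 had the lowest mean in both genotypes, at 0.114 CPM per kb in NLGF hippocampus and 0.00976 CPM per kb in WT hippocampus. Its range overlapped that of Ccl4 in NLGF hippocampus and those of Ccl3 and Ccl4 in WT hippocampus. Ccl3, Ccl4, Ccl2 and Ccl12 were thus seen through at most 26 reads in any library of week 24.

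Among the other genes of the pathway none passed the test at week 24, and 1, Cxcl9, passed when the filter on low counts was left out. Of 28 other chemokines listed, 25 had any read in the series and 7 could be tested at week 24. None of the 7 was called (1 at an unadjusted p under 0.05, none by DESeq2), and their median log2 fold change was -0.01. Cxcl10, induced by interferons and the ligand of Cxcr3, averaged 0.564 ± 0.319 CPM in NLGF hippocampus and 0.293 ± 0.203 CPM in WT hippocampus (SD, n = 10 each). Its log2 fold change of 0.96 ± 0.432 did not pass (adjusted p = 0.515, edgeR). Cxcl14, made by neurons and epithelia, was at 71.6 ± 7.80 CPM in NLGF hippocampus and 76.8 ± 6.44 CPM in WT hippocampus. Ccl5, a chemokine of T cells, had 41 reads over the NLGF libraries and 20 over the WT libraries, with a log2 fold change of 1.18 ± 0.541 without the filter (adjusted p = 0.632, edgeR). Cxcl9, like Cxcl10 a ligand of Cxcr3, had 83 reads over the NLGF libraries, with 3 at 0 and at most 21 in a library, and 7 over the WT libraries, with 7 at 0. It averaged 0.295 ± 0.252 CPM in NLGF hippocampus and 0.0268 ± 0.0434 CPM in WT hippocampus (SD, n = 10 each). Without the filter its log2 fold change was 3.40 ± 0.784 (SE, adjusted p = 0.0495, edgeR), just past the threshold.

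Of 24 chemokine receptors and sheddases, 9 could be tested at week 24 and none was called (1 at an unadjusted p under 0.05, none by DESeq2; median log2 fold change 0.09). Cxcr4 averaged 2.70 ± 0.773 CPM in NLGF hippocampus and 2.24 ± 0.519 CPM in WT hippocampus, and Ackr3, the scavenging receptor of Cxcl12, 10.1 ± 2.18 CPM in NLGF and 8.62 ± 1.27 CPM in WT hippocampus. Their log2 fold changes were 0.27 ± 0.152 for Cxcr4 and 0.23 ± 0.117 for Ackr3 (SE), with adjusted p-values of 0.624 and 0.577 in edgeR. The sheddases Adam10 and Adam17 had log2 fold changes of 0.01 ± 0.0456 and 0.09 ± 0.0781 (SE), at 101.6 and 14.6 CPM in NLGF hippocampus and 101.0 and 13.6 CPM in WT hippocampus. Ackr1, an atypical receptor that binds many chemokines, averaged 27.1 CPM in NLGF and 28.6 CPM in WT hippocampus. Reads of Ccr2, the receptor of Ccl2 and Ccl12 on monocytes, numbered 40 over the NLGF libraries and 31 over the WT libraries. Cxcr6, the receptor of Cxcl16, had 61 reads over the NLGF libraries and 25 over the WT libraries, at 0.221 ± 0.122 CPM in NLGF hippocampus and 0.0961 ± 0.0521 CPM in WT hippocampus. Without the filter its log2 fold change of 1.18 ± 0.393 did not pass (SE, adjusted p = 0.375, edgeR). At weeks 3 and 8 no gene of either list was called in edgeR; 2 receptors or sheddases had an unadjusted p under 0.05 at week 3, of which DESeq2 called 1.

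Marker genes of microglia rose at the same age as Ccl6, Cxcl16 and Cx3cr1, and their part in these results was not tested. Of 12 homeostatic microglia markers 6 were called higher at week 24 and none lower (median log2 fold change 0.33). Their summed level was 233.8 to 281.9 CPM in NLGF hippocampus and 199.3 to 231.5 CPM in WT hippocampus, with no overlap. Among those not called were P2ry12 (0.11 ± 0.0817, adjusted p = 0.723) and Tmem119 (0.08 ± 0.0862, adjusted p = 0.821, edgeR). Of 12 markers of plaque-associated microglia 10 were called higher (median 1.14), among them Itgax (3.89 ± 0.196, adjusted p = 4.682e-11) and Cst7 (4.51 ± 0.334, adjusted p = 3.169e-08, edgeR). Their summed level was 568.2 to 913.5 CPM in NLGF hippocampus and 382.0 to 569.7 CPM in WT hippocampus. Most of that sum was Ctsd, which averaged 454.4 CPM in NLGF and 305.3 CPM in WT hippocampus, whereas Itgax and Cst7 averaged 4.69 and 6.76 CPM in NLGF hippocampus. Over the 12 homeostatic markers the mean of log2(CPM + 0.5) was higher by 0.32 in NLGF hippocampus. Set against that mean within each library, Cx3cr1 differed by 0.04 between NLGF and WT hippocampus, with values of 1.84 ± 0.0382 and 1.80 ± 0.0811. Ccl6 differed by 1.57 on the same scale, with -1.53 ± 0.207 in NLGF and -3.11 ± 0.224 in WT hippocampus (SD of log2 values, n = 10 each). Cxcl16 differed by 0.42, with -2.95 ± 0.204 in NLGF and -3.37 ± 0.289 in WT hippocampus. The 0.5 CPM added before taking logs shrinks the differences of Ccl6 and Cxcl16, which are low in level, more than that of Cx3cr1. The differences of these genes are therefore not directly comparable.

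**Figure D4:**
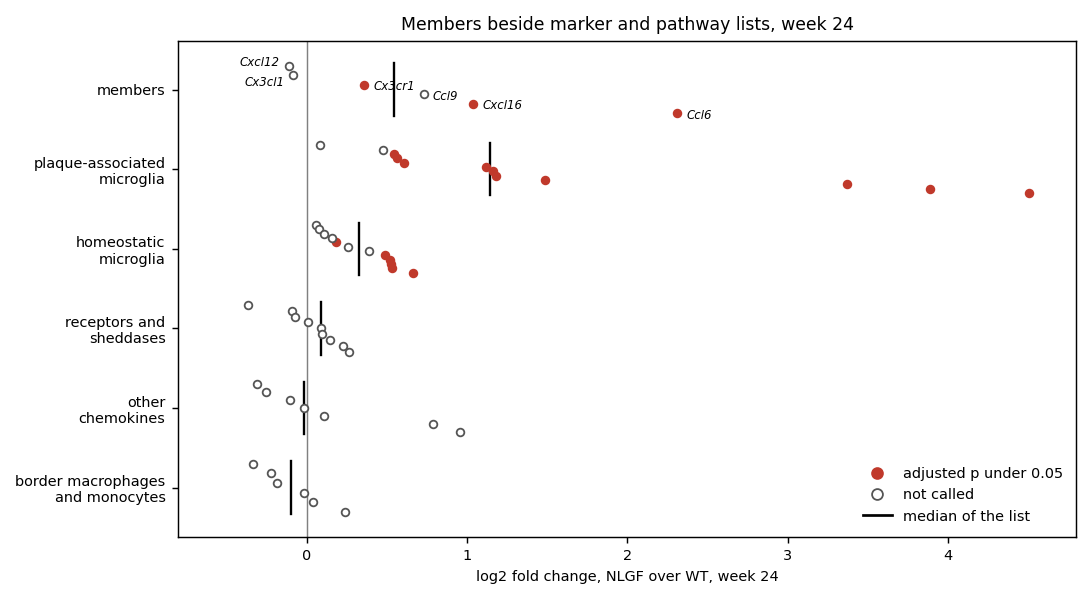
Log2 fold change of NLGF over WT at week 24 for the 6 tested members and for the tested genes of 5 lists, each point a gene and each vertical bar the median of its list; points are spread vertically for legibility only. Filled red points have an adjusted p under 0.05 in edgeR: 3 of 6 among the members, 10 of 12 plaque-associated and 6 of 12 homeostatic microglia markers, and none among the receptors and sheddases, other chemokines and border macrophage or monocyte markers.

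Markers of other cells were not called at week 24. Of 12 markers of border macrophages and monocytes 6 could be tested and none was called in edgeR or DESeq2 or had an unadjusted p under 0.05 (median log2 fold change -0.10), with a summed level of 25.0 to 36.4 CPM in NLGF hippocampus and 27.3 to 36.8 CPM in WT hippocampus. Most of that sum was Vcan, which averaged 23.1 CPM in NLGF and 23.4 CPM in WT hippocampus. The sum thus says little about the other markers of the list, of which Ccr2, Ly6c2, Plac8 and Chil3 had too few counts to be tested. Mrc1 averaged 3.92 CPM in NLGF and 3.79 CPM in WT hippocampus. None of 6 neutrophil markers had enough counts, with S100a8 at 15 reads over the NLGF and 11 over the WT libraries, and Cd3e of T cells had 27 reads over the NLGF and 18 over the WT libraries. None of the 6 endothelial, 7 mural and fibroblast, 7 neuronal and 6 choroid plexus markers was called in edgeR or DESeq2, with 1 endothelial and 1 mural marker at an unadjusted p under 0.05. Cldn5 of endothelium averaged 18.8 CPM in NLGF and 18.2 CPM in WT hippocampus, Rbfox3 of neurons 251.5 CPM in NLGF and 254.6 CPM in WT hippocampus, and Ttr of choroid plexus ranged from 18.9 CPM upward in NLGF and from 13.6 CPM upward in WT hippocampus.

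Across the 60 libraries the genes whose log2 level ran most closely with Ccl6 were Cst7 (Pearson r = 0.936), Mpeg1 (0.918) and Itgax (0.917), among the 14498 genes that averaged 1 CPM or more. Cst7 encodes a cysteine protease inhibitor, Mpeg1 a pore-forming protein of macrophages, and Itgax the integrin CD11c. For Cx3cr1 the closest were Ly86 (0.838), which binds the receptor-like protein Cd180, and Nckap1l (0.826), an actin regulator of blood cells. For Cx3cl1 they were Fscn1 (0.831), an actin-bundling protein, Atg9a (0.824), a lipid scramblase of autophagy, and Midn (0.803). These correlations describe libraries that share genotype, age and depth classes. Without the 7 deeper libraries the same 3 genes led for Ccl6, while C1qb (0.854) led for Cx3cr1 and Atg9a (0.825) for Cx3cl1.

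Some of these genes share their interval with others, and the strand setting of the counts is not given in the sources used here. Ccl6 lies within E230016K23Rik on the opposite strand, which averaged 0.0411 CPM in NLGF and 0.0344 CPM in WT hippocampus at week 24. The start of Cxcl16 overlaps that of Zmynd15 on the opposite strand, which averaged 0.179 CPM in NLGF hippocampus and 0.120 CPM in WT hippocampus, and the start of Cx3cr1 overlaps Gm33858 on the opposite strand, which averaged 0.0936 CPM in NLGF hippocampus and 0.128 CPM in WT hippocampus. These levels are low beside those of the 3 genes. The longest interval annotated for Cx3cr1 also overlaps 8 further genes, among them Gorasp1, Csrnp1 and Xirp1 on the same strand. The levels of these 8 genes were not compared with that of Cx3cr1. Ccl2 overlaps Gm17268 on the opposite strand, which is not used here.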

How the data were processed

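Raw counts per gene symbol of 60 libraries were deposited by the authors as whole-number counts. The submitters' processing notes name mm10, STAR, FastQC, DESeq2 and edgeR without versions; how reads were counted, on which annotation and strand, is not given in the sources used here. Per the file headers, the authors' deposited table of called genes gives a mean normalized signal, a log2 fold change of NLGF over WT, its standard error (treated as a score) and p-values. The members and all gene lists were chosen with earlier results of these data known.

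From the counts, each comparison was fitted on the whole table in R 4.3.3 with edgeR 4.0.16: filterByExpr (minimum count 10), TMM scaling, robust quasi-likelihood F-test, 2-sided, sex as a covariate, Benjamini-Hochberg adjustment over all genes tested, threshold 0.05. Levels are CPM, counts over the TMM-adjusted library total. SE is the log2 fold change over the root of F. Fits used the 20 libraries of an age, all 60 libraries (difference of the genotype effect between ages, sex within age) or the 30 WT libraries. The log2 ratio of Cx3cl1 to Cx3cr1 used a pseudocount of 0.5 CPM and 100000 permutations. The levels set against the homeostatic markers, the correlations across libraries and the scale of WT age used the same pseudocount. The fits were tested on simulated data.

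All 10 members are named or covered by a range in every comparison. From the other lists the names come from a written list of genes plus any gene called between genotypes, and for likeness the 3 genes of highest r. Some genes that this rule names are not reported here. Adam10 and Adam17 in WT ageing, Cxcl9 and Cxcr6 were chosen after their values were seen. Alternatives were RLE scaling, DESeq2 1.42.0, no filter, no sex term, each sex alone, a replicate block, each library left out, and week 3 without the 7 deeper libraries. For the difference between sexes the alternatives were added after the data were seen. Replicate numbers were not taken to pair the libraries. No replicate libraries were identical.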

Additional observations from a re-analysis of the deposited data

Results flagged for a closer look

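The genotype effect of Ccl6 at week 24 differed from that at week 8 by 2.32 on the log2 scale (edgeR, adjusted p = 1.558e-09) and from that at week 3 by 2.38 (adjusted p = 3.153e-10), and that of Cxcl16 at week 24 differed from that at week 8 by 1.20 (adjusted p = 0.0155). In each case the later effect was the higher. Without WT female 3 of week 8 the Cxcl16 difference was 1.04 (adjusted p = 0.0520).

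In 9 of 60 sets of 10 libraries, made of a gene and a group, the highest library stood apart from the other 9 of its set by Dixon's criterion at the 95% level. For normally distributed values chance alone gives about 1 set in 20. Low counts are skewed to the high end, so the 9 sets cannot be held against that rate. Cxcl16 was at 2.12 CPM (42 reads) in WT female 3 of week 8, where the next WT library had 1.26 CPM. The same library held 0.354 CPM of Ccl12 (7 reads).

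The others were low counts. Ccl3 was at 0.199 CPM in NLGF female 1 and at 0.288 CPM in WT male 1 of week 3, at 0.335 CPM in NLGF female 1 of week 8, the library with the conflicting age field, and at 0.294 CPM in WT female 4 of week 24. Ccl4 was at 0.272 CPM in WT male 4 of week 3 and at 0.150 CPM in WT female 1 of week 24, and Ccl2 at 0.182 CPM in WT male 5 of week 8. These 7 values rest on 5 to 14 reads each.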

How the results depend on the processing

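Of the genotype calls at week 24, Ccl6 passed under all alternatives run, Cx3cr1 under all but the fit of males only and Cxcl16 under all but the fits of a single sex. The number of members called at week 24, 3 as reported, was 5 with no filter on low counts and 1 in males only. At week 3 DESeq2 called 1 member where edgeR called none. For the difference between weeks 24 and 3 a replicate block gave 2 called members in place of 1, Cxcl16 being the addition (0.96, adjusted p = 0.0311). The block changed no other call of a member, and over the whole table it gave 165 calls at week 3 in place of 628 and 29 for WT week 24 against week 8 in place of 47. The numbers are not shown to pair libraries. Of 10 same-numbered pairs an age, 2 at week 3, 3 at week 8 and 6 at week 24 correlated above 0.1, and 1, 2 and 7 correlated best with their own number, so week 24 holds a hint of pairing that the labels do not give; there the block left 3 members called and 145 genes, as without it.

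With each library left out in turn, called members numbered 0 to 1 at week 3 (Cx3cr1 without NLGF male 1, adjusted p = 0.0443), 0 at week 8, 3 to 4 at week 24, 1 to 2 for week 24 against 8 and 1 to 2 for week 24 against 3, 1 for WT week 8 against 3, 0 for WT week 24 against 8 and 0 for the difference between sexes. The Cxcl16 difference of week 24 against 3 passed without NLGF female 1 or 3 of week 3, WT female 3 of week 8 or WT male 4 of week 24. The log2 ratio of Cx3cl1 to Cx3cr1 differed by -0.10 to -0.03 at week 3, -0.14 to -0.05 at week 8 and -0.48 to -0.41 at week 24.

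Directions turned only for values that had not passed. Ccl9 at week 3 was -0.14 without the deeper libraries, Cx3cl1 at week 8 was -0.011 with no sex term, Cxcl16 in WT at week 8 against 3 was -0.00933 with the replicate block, and Ccl9 in the same comparison was 0.00457 with RLE scaling, 0.00387 with DESeq2 and 0.00124 with no filter. With each library left out, Ccl6 ran from -0.17 to 0.0053 at week 3. At week 8 the ranges were -0.14 to 0.067 (Ccl6), -0.064 to 0.13 (Ccl9), -0.25 to 0.0048 (Cxcl16), -0.043 to 0.00087 (Cxcl12) and -0.043 to 0.080 (Cx3cl1). For WT week 8 against 3 they were -0.10 to 0.091 (Ccl9) and -0.15 to 0.084 (Cxcl16), and for WT week 24 against 8 they were -0.034 to 0.12 (Ccl6) and -0.16 to 0.025 (Ccl9). For the difference between sexes they were -0.24 to 0.073 (Ccl6), -0.17 to 0.35 (Ccl12), -0.26 to 0.022 (Cxcl16), -0.095 to 0.010 (Cxcl12) and -0.028 to 0.057 (Cx3cr1). The cause was not tested.

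Over the whole table the calls at week 3, 628, ran from 102 to 1923 with 1 library left out and were 1486 with DESeq2, 351 with no filter and 0 without the deeper libraries. At week 24 they were 145, and 224 with DESeq2, 44 in females only and 37 in males only. At week 8 DESeq2 called 1 gene. For week 24 against 3 they were 204, with 124 to 538 when leaving out a library, 308 with DESeq2, 124 with no filter and 15 without the deeper libraries. For WT week 8 against 3 they were 1202 and 999 to 2029, and for WT week 24 against 8 they were 47, 28 to 81, and 111 with DESeq2. Depth limits Ccl3, Ccl4, Ccl2 and Ccl12, with at most 26 reads in a library of week 24.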
